A study of Mus musculus with 8 samples.

Results

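R-loop peaks assigned to 9 genes of receptor tyrosine kinases of the muscle stem cell (MuSC) niche were examined by DNA-RNA immunoprecipitation sequencing (DRIP-seq). The genes were Fgfr1, Fgfr2, Fgfr4, Met, Igf1r, Insr, Pdgfra, Pdgfrb and Egfr, and their peaks were all rows of the union peak table that carried one of these symbols, regardless of score. Of 28265 union peaks, 87 did so. Fgfr2 held 53 of them, Igf1r 19, Met 8, Fgfr1 4, Fgfr4 2 and Insr 1, and Pdgfra, Pdgfrb and Egfr held 0. The control MuSCs (Ctrl) had the genotype Pax7CreERT/Suv4-20h1WT and the mutant MuSCs (Kmt5b sKO) carried the knockout of Suv4-20h1, an older name of Kmt5b, on the same Pax7CreERT background. Both genotypes therefore shared the tamoxifen-inducible Cre driven by Pax7, a gene of MuSCs, and Kmt5b is a methyltransferase of histone H4 lysine 20. Adult MuSCs had been purified with magnetic beads and grown in medium with serum, leukemia inhibitory factor and basic fibroblast growth factor, a ligand of the Fgfr receptors. Each genotype had 3 S9.6 libraries.

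Receptor tyrosine kinases are single-pass membrane proteins that signal as pairs. Most pair when a growth factor binds, while Insr and Igf1r are already linked pairs that the ligand activates, and the partners then phosphorylate each other and their adaptors, which feeds the Ras-ERK and PI3K-AKT pathways. In muscle, hepatocyte growth factor acts through Met on MuSCs leaving quiescence, fibroblast growth factors act through Fgfr1 and Fgfr4 on proliferating myoblasts, and insulin-like growth factors act through Igf1r on growth and differentiation. Insr is the insulin receptor. Pdgfra and Pdgfrb are best known in muscle for fibro-adipogenic and mural cells, and Egfr receives epidermal growth factor. An R-loop is a hybrid of RNA with its DNA template that leaves the other DNA strand single, and it is favoured where the displaced strand is rich in G. The S9.6 antibody recovers the DNA of such hybrids. An S9.6 score is neither an expression level nor a count of reads, and in bulk cells fewer hybrids per cell and fewer cells with a hybrid cannot be told apart.

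4 peaks inside the receptor genes differed between the genotypes under the thresholds used, 3 with a higher and 1 with a lower score in Kmt5b sKO. For each of them, the 300 bases of the coding strand with the most bases in runs of G are shown, because G-rich non-template DNA is the feature most often linked to hybrids. Capitals mark each run of at least 4 G (GGGG or longer), the sequence is from the GRCm38 RefSeq reference, and the windows were chosen by this rule within each peak.
Fgfr4, 10600 bp peak, chr13:55156082-55156381, plus strand: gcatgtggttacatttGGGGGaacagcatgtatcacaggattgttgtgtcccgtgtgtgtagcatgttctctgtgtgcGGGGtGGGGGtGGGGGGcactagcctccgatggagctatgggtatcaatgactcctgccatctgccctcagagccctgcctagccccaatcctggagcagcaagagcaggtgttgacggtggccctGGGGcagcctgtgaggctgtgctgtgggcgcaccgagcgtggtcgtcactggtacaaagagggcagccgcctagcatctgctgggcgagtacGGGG
Met, 8000 bp peak, chr6:17476142-17476441, plus strand: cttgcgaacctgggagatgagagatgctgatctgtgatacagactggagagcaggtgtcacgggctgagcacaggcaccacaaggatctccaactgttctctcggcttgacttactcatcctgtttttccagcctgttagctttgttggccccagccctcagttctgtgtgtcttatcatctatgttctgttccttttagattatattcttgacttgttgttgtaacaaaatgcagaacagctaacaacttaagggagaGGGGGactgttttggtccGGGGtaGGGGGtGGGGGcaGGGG
Met, 1800 bp peak, chr6:17533801-17534100, plus strand: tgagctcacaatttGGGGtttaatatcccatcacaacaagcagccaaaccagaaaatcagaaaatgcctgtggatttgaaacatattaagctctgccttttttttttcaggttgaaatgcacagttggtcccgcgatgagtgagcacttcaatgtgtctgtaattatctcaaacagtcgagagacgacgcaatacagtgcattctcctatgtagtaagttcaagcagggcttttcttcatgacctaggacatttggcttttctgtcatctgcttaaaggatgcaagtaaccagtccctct
Insr, 1400 bp peak, chr8:3163093-3163392, minus strand: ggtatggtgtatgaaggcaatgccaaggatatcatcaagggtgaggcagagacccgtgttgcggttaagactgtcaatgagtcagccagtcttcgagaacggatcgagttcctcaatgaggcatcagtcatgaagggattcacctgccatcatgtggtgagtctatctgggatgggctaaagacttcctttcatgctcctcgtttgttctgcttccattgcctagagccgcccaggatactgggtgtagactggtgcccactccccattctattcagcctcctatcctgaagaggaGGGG
The Fgfr4 window held 6 such runs and lay over 151 exon bases, and the window of the 8000 bp Met peak held 5 and lay wholly in an intron. The windows of the 1800 bp Met peak and of the Insr peak held 1 run each and covered 103 and 156 exon bases. Over the whole peaks, the coding strand carried 52 runs of G and 45 of C at Fgfr4, 23 of G and 29 of C in the 8000 bp Met peak, 2 of G and 4 of C in the 1800 bp Met peak, and 1 of each at Insr. Runs of G outnumbered runs of C only at Fgfr4 among these 4 peaks. In a fixed window, the central 300 bases, GGGG on the coding strand occurred in 49.7% of 21756 tested peaks with a gene, and in 19 of the 34 peaks inside the receptor genes (55.9%). Only the coding strand was searched for this share. The printed windows were instead picked as the richest in each peak, so this share is no background for their runs.

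The score of a peak was summed over its length and scaled by the authors to Drosophila DNA added to each sample. Totals over all union peaks were 3909655, 4729631 and 3893768 in the Ctrl libraries and 4699599, 4930261 and 4781207 in the Kmt5b sKO libraries. Ctrl replicate 2 therefore lay with the Kmt5b sKO libraries in total score. Fold changes of the receptor genes that rest on it are also given without it. Kmt5b, the targeted gene, had 1 peak with scores of 412, 658 and 420 in Ctrl and 440, 449 and 484 in Kmt5b sKO, and whether it covers the deleted exons is not given in the sources used here, so it does not check the genotype. Of 14 MuSC marker genes 7 carried a peak (Pax7, Myod1, Itga7, Sdc3, Sdc4, Des and Myog), against 1 of 8 fibro-adipogenic, 2 of 6 mural, 2 of 6 endothelial, 0 of 6 immune and 0 of 3 Schwann cell markers. Pax3, Myf5, Cdh15, Vcam1, Msc, Calcr and Chrdl2 had none. Over all 20665 autosomal coding genes 41.1% overlapped a union peak, a share near that of the MuSC markers. The marker counts were not tested and do not measure the purity of the cells. Across 25815 tested peaks, the median log2 fold change of Kmt5b sKO over Ctrl was 0.35. It was 0.15 with libraries brought to equal totals, -0.11 with each library centred on its median and -0.012 after quantile normalization, so each direction below is relative to the spike-in scale.

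The label Fgfr2 did not mark the Fgfr2 gene. RefSeq places Fgfr2, the receptor whose splice forms select between fibroblast growth factors, at chr7:130162451-130266808 on the minus strand, a length of 104.358 kb. The gene model behind the table ran to 133123350, or 2960.9 kb, because of a single transcript, while the next longest of its 27 transcripts spanned 103.813 kb. None of the 53 peaks labelled Fgfr2 overlapped the RefSeq gene, and the nearest began 132.593 kb from it. Fgfr2 itself therefore had 0 peaks, and the 34 peaks of Fgfr1, Fgfr4, Met, Igf1r and Insr, which all overlapped their RefSeq genes, are the R-loop peaks of the receptors. They are called peaks inside the receptor genes, also where a peak runs past the end of its gene.

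All 34 peaks inside the receptor genes passed the filter of a mean score over 30. A call in limma needed an adjusted p below 0.1 together with a fold above 1.5. By this rule 3 of them rose and 1 fell in Kmt5b sKO, where 32.9% of all tested peaks were called higher and 0.883% lower. The 3 that rose were 8.82% of the receptor peaks. Their median log2 fold change was 0.13, against 0.35 for all tested peaks, and 22 were positive. With equal totals the median of the 34 peaks was -0.076 and 15 were positive, with centring it was -0.33 and 5 were positive, and with quantile normalization it was -0.26 and 9 were positive. The 3 libraries of one genotype lay wholly above those of the other in 10 peaks, 8 higher and 2 lower in Kmt5b sKO, against 41.5% and 3.81% of all tested peaks.

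Met, the receptor of hepatocyte growth factor, had 8 peaks over 66.8 kb, and 57.7% of the gene lay inside a peak. The peak nearest its transcription start site (TSS), at chr6:17475000-17482999, is 8000 bp long, overlaps no exon and begins 11.651 kb into the gene. It scored 236, 246 and 253 in Ctrl and 343, 426 and 363 in Kmt5b sKO. Every Kmt5b sKO library lay above every Ctrl library. The log2 fold change was 0.62 (limma SE 0.15, n = 3 per genotype, adjusted p = 0.000502). It was 0.41 with equal totals, 0.16 with centring and 0.47 with quantile normalization, where the fold no longer passed 1.5. The call was also lost without Kmt5b sKO replicate 2, at 0.53.

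A shorter Met peak of 1800 bp at chr6:17533800-17535599 overlaps 3 exons, 70.451 kb from the TSS. It scored 38, 42 and 50 in Ctrl and 56, 93 and 64 in Kmt5b sKO, also without overlap. The log2 fold change was 0.68 (limma SE 0.26, adjusted p = 0.0286), and the 93 of Kmt5b sKO replicate 2 was the highest value. Without that library the difference was 0.47 and was not called, and without Ctrl replicate 1 it was 0.59 and was not called. The call was also lost with a pseudocount of 10, with the peak's own variance and under the other scalings, at 0.47 with equal totals, 0.22 with centring and 0.13 with quantile normalization.

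The highest Met peak by score, chr6:17499000-17526599, is 27600 bp long and covers 2 exons. Its scores of 966, 1018 and 909 in Ctrl and 1079, 1247 and 1139 in Kmt5b sKO did not overlap, yet the log2 fold change of 0.26 (limma SE 0.13, adjusted p = 0.112) was not called. The remaining 5 peaks of Met had log2 fold changes of at most 0.30, and all 8 were positive on the spike-in scale, while 6, 2 and 5 of the 8 were positive with equal totals, centring and quantile normalization. Summed over the gene, Met scored 2091, 2359 and 2082 in Ctrl and 2498, 2916 and 2648 in Kmt5b sKO. The libraries did not overlap, and the log2 fold change of 0.30 (limma SE 0.12, adjusted p = 0.0362 over 7299 genes) was under the fold threshold and turned to -0.014 with centring. By summed score 25.6% of the genes were called higher and 0.274% lower, and of the 6 symbols with peaks only Insr was called.

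Fgfr4, a fibroblast growth factor receptor of activated and regenerating muscle, held the 1 receptor peak that fell. The peak at chr13:55153400-55163999 is 10600 bp long, begins 0.582 kb downstream of the TSS and overlaps 11 exons of the 15.942 kb gene. It scored 370, 517 and 368 in Ctrl and 284, 290 and 252 in Kmt5b sKO. All 3 Kmt5b sKO libraries lay below all 3 Ctrl libraries, and Ctrl replicate 2 was the highest. The log2 fold change was -0.59 (limma SE 0.15, adjusted p = 0.000759), only just past the fold threshold. It was -0.79 with equal totals, -1.04 with centring and -0.72 with quantile normalization. Without Ctrl replicate 2 it was -0.42 with an adjusted p of 0.0034 in limma, and without Kmt5b sKO replicate 3 it was -0.52, in both cases under the fold threshold. The call was also lost with a pseudocount of 10, at -0.57, and with the peak's own variance, at an adjusted p of 0.103 in limma's fit without eBayes.

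The second Fgfr4 peak, named here after its values were seen, lies at the other end of the gene (chr13:55167600-55168999, 1400 bp, 2 exons). It scored 44, 31 and 33 in Ctrl and 53, 47 and 58 in Kmt5b sKO, in the opposite order to the long peak. The log2 fold change of 0.55 (limma SE 0.30, adjusted p = 0.144) was not called, and it was -0.083 after quantile normalization. The 2 peaks summed to 414, 548 and 401 in Ctrl and 337, 337 and 310 in Kmt5b sKO, a log2 fold change of -0.46 (limma SE 0.14, adjusted p = 0.00603). The gene sums did not overlap, and the difference was under the fold threshold on the spike-in scale and past it under each of the other 3 scalings. Without Ctrl replicate 2 it was -0.31 on the spike-in scale (adjusted p = 0.0170 in limma).

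**Figure D1:**
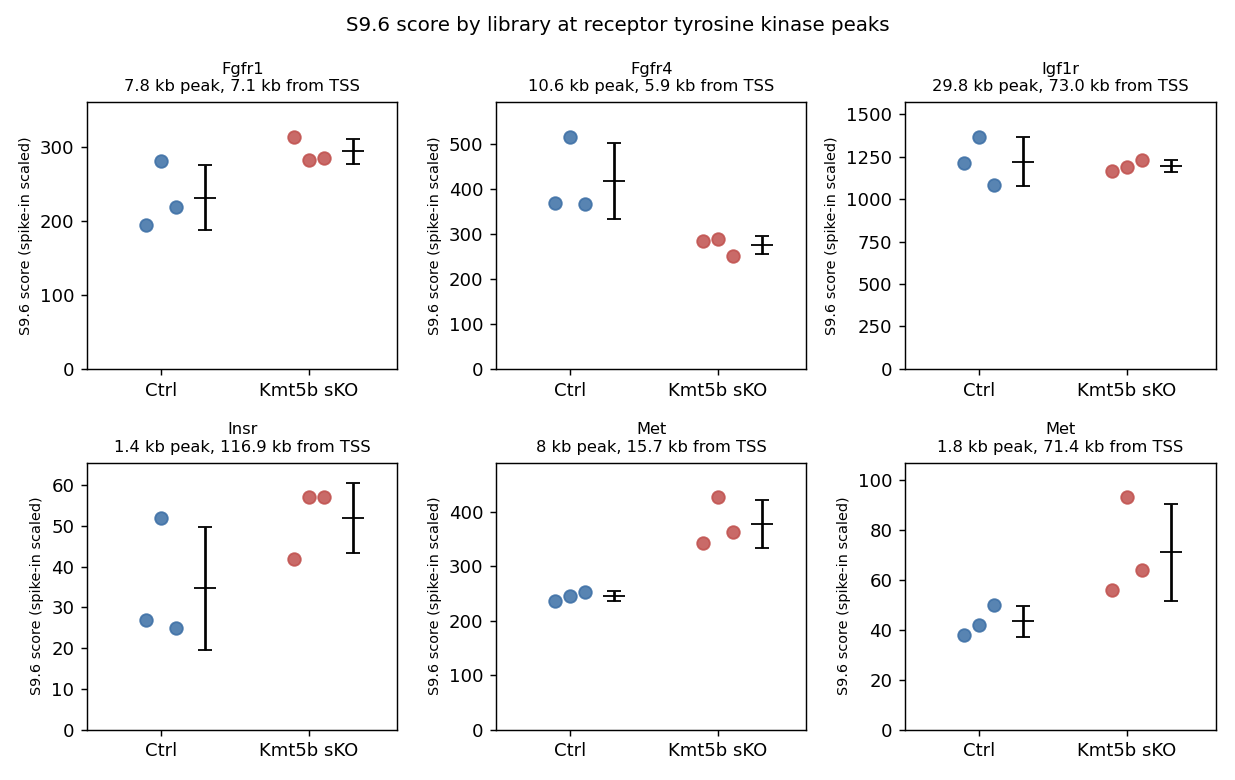
S9.6 score (spike-in scaled, linear axis from 0) of each library at 6 peaks, with 3 Ctrl points in blue, 3 Kmt5b sKO points in red and the mean ± SD in black. The panels show the 4 called peaks and the highest peaks of Fgfr1 and Igf1r. The Kmt5b sKO points lie above all Ctrl points at both Met peaks and below them at Fgfr4, and the genotypes overlap at Insr and Igf1r.

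Fgfr1, the main fibroblast growth factor receptor of proliferating myoblasts, had 4 peaks of 2200 to 7800 bp. Its highest peak was also the nearest to the TSS, at chr8:25522000-25529799, overlapping no exon. It scored 195, 281 and 219 in Ctrl and 314, 283 and 285 in Kmt5b sKO, a narrow separation of 281 against 283. The log2 fold change of 0.36 (limma SE 0.16, adjusted p = 0.0576) was under the fold threshold. The other 3 peaks ranged from -0.13 to 0.48, and the 4 summed to 506, 762 and 567 in Ctrl and 744, 702 and 654 in Kmt5b sKO. Those sums overlapped, with a log2 fold change of 0.21 (limma SE 0.13, adjusted p = 0.193) that was -0.10 with centring. Ctrl replicate 2 was the highest of all 6 libraries. Leaving it out moved the value to 0.38 (limma SE 0.093, adjusted p = 0.000482), still under the fold threshold, and leaving out Ctrl replicate 1 moved it to 0.089.

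Igf1r, the receptor of insulin-like growth factors, had the most peaks of any receptor gene, 19 over its 281.412 kb, and 0 were called. 18 of the 19 overlap no exon. The highest, chr7:68010400-68040199, is 29800 bp long and scored 1215, 1368 and 1082 in Ctrl and 1163, 1190 and 1230 in Kmt5b sKO. The genotypes overlapped, with a log2 fold change of -0.026 (limma SE 0.13, adjusted p = 0.898). The peak nearest the TSS, chr7:67955000-67957999, scored 69, 76 and 82 in Ctrl and 99, 97 and 87 in Kmt5b sKO. These did not overlap, yet the difference of 0.32 (limma SE 0.21, adjusted p = 0.238) was not called. Across the 19 peaks the log2 fold change ran from -0.40 to 0.40, with 9 positive on the spike-in scale and 5, 0 and 1 positive with equal totals, centring and quantile normalization. The gene sums of 2699, 3127 and 2562 in Ctrl and 2724, 2788 and 2647 in Kmt5b sKO gave a log2 fold change of -0.035 (limma SE 0.12, adjusted p = 0.838). That sum was 0.048 without Ctrl replicate 2.

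Insr had 1 peak of 1400 bp, chr8:3162000-3163399, over 1 exon and 116.249 kb from its TSS. It covered 1.09% of the gene. The scores were 27, 52 and 25 in Ctrl and 42, 57 and 57 in Kmt5b sKO, and the Ctrl replicate 2 value of 52 lay above 1 Kmt5b sKO library. The log2 fold change of 0.64 (limma SE 0.32, adjusted p = 0.0976) was called at the edge of the threshold. It was 0.96 without Ctrl replicate 2, and the call was lost when any of Ctrl replicates 1 and 3 and Kmt5b sKO replicates 2 and 3 was left out, and under the other 3 scalings, where the value was 0.069 to 0.44. On the spike-in scale Insr had the largest change of summed score among the receptors, while under each of the other 3 scalings that of Fgfr4 was larger. The 3 genes of 7299 with the most similar profile over the 6 libraries, by Euclidean distance of centred log2 scores, were Ankrd23 (0.253), Golm1 (0.266) and Myo18b (0.282).

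**Figure D2:**
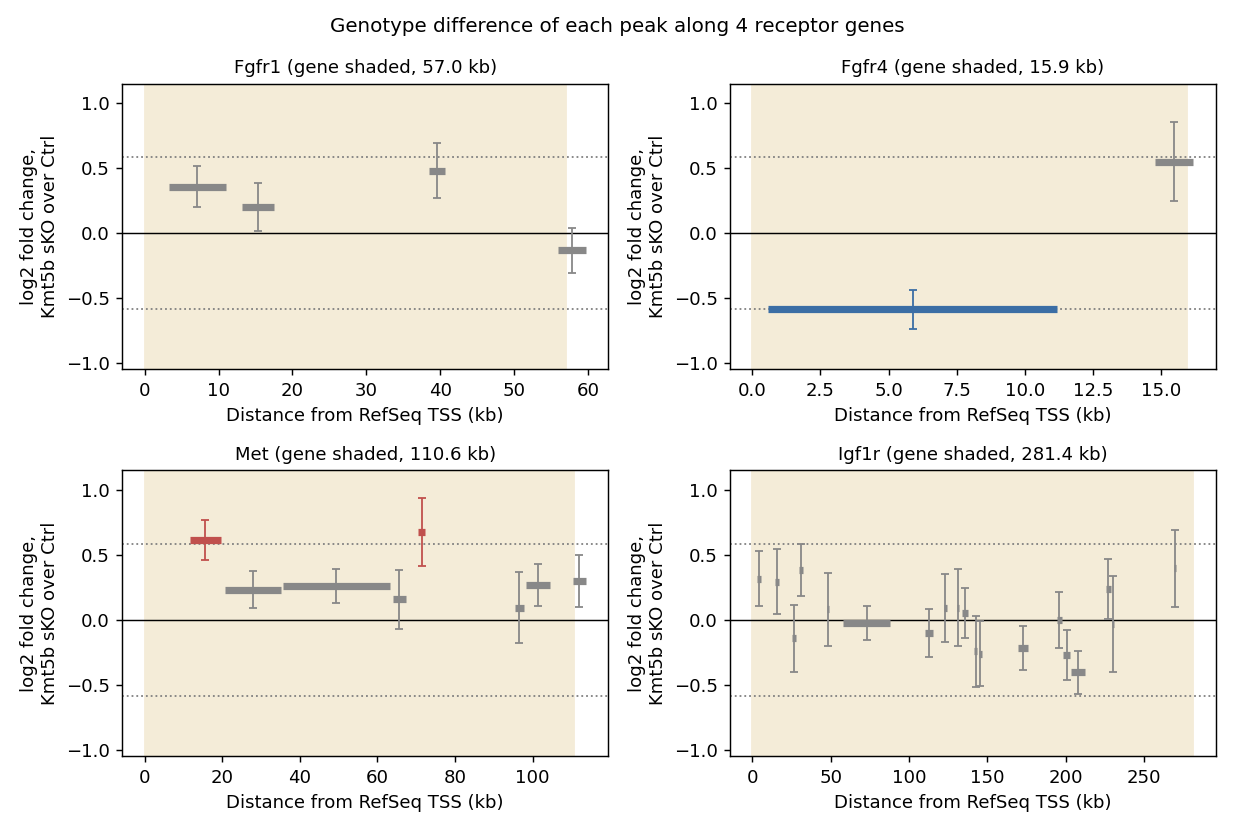
log2 fold change of Kmt5b sKO over Ctrl for each peak of Fgfr1, Fgfr4, Met and Igf1r, against the distance of the peak from the RefSeq TSS in kb. Horizontal bars span each peak, vertical bars are 1 SE, the gene is shaded, dotted lines mark a fold of 1.5, and called peaks are red (higher) or blue (lower). The Fgfr4 peak near the TSS is at -0.59, the called Met peaks are at 0.62 and 0.68, and the 19 Igf1r peaks lie between -0.40 and 0.40.

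The score per kb of peak allowed levels to be set side by side between genes. In Ctrl, Fgfr4 averaged 37.9 ± 6.78 per kb (SD, n = 3), Fgfr1 34.0 ± 7.43, Met 32.6 ± 2.36, Igf1r 31.5 ± 3.32 and Insr 24.8 ± 10.7. Neighbours in this order differed by less than the larger of their SDs. In Kmt5b sKO the order was Met 40.2 ± 3.17, Fgfr1 38.9 ± 2.50, Insr 37.1 ± 6.19, Igf1r 30.6 ± 0.795 and Fgfr4 27.3 ± 1.30, and Met, Fgfr1 and Insr differed by less than the larger of their SDs while Insr and Igf1r, and Igf1r and Fgfr4, differed by more. Fgfr4 was thus the highest of the 5 receptors in Ctrl and the lowest in Kmt5b sKO. The median tested peak with a gene had 29.1 per kb in Ctrl and the median peak of the receptors 28.3.

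The ratio of the peak nearest the TSS to the farthest peak of the same gene does not depend on the scale of a library except through the 1 added to each score, and was chosen after the data had been seen. For Met the ratio of scores was 2.58, 2.47 and 2.82 in Ctrl and 3.07, 3.62 and 3.11 in Kmt5b sKO. For Fgfr1 it was 1.34, 1.18 and 1.34 in Ctrl and 1.73, 1.86 and 1.83 in Kmt5b sKO. In both genes every Kmt5b sKO library had the higher ratio. Their farthest peaks lie mostly downstream of the gene. That of Met starts at chr6:17573800 and the gene ends at 17573980. That of Fgfr1 spans chr8:25574600-25578399 and the gene ends at 25575718. For Fgfr4 the ratio was 8.24, 16.2 and 10.9 in Ctrl and 5.28, 6.06 and 4.29 in Kmt5b sKO, so every Kmt5b sKO library had the lower ratio. For Igf1r the genotypes overlapped, with 1.49, 1.75 and 2.68 in Ctrl and 1.49, 1.88 and 2.10 in Kmt5b sKO. In all 4 genes the peak nearest the TSS was the longer, at 8000 against 3200 bp in Met and 7800 against 3800 bp in Fgfr1. The lengths were 10600 against 1400 bp in Fgfr4 and 3000 against 1400 bp in Igf1r. Over the whole table, 56.9% of tested peaks up to 2000 bp but 4.08% of those over 6000 bp were called higher. The ratios were not adjusted for length. The exact permutation test, two-sided, gave p = 0.1 for Met, Fgfr1 and Fgfr4, the smallest value 3 libraries against 3 allow, and p = 0.9 for Igf1r. After Benjamini-Hochberg adjustment over the 4 comparisons the smallest was 0.133, so no difference passed. Among 3815 genes with at least 2 tested peaks, the ratios did not overlap in 21.7% in the higher and 6.92% in the lower direction.

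**Figure D3:**
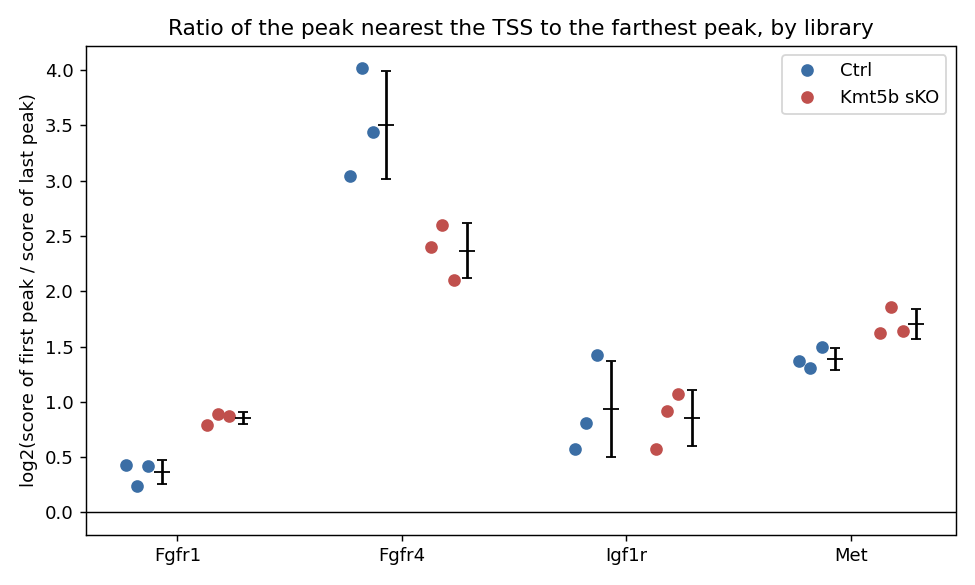
log2 ratio of the score of the peak nearest the TSS to that of the farthest peak in 4 receptor genes, by library, with Ctrl in blue, Kmt5b sKO in red and the mean ± SD in black. The Kmt5b sKO points lie above the Ctrl points in Fgfr1 and Met, below them in Fgfr4 and among them in Igf1r.

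Of the 34 peaks inside the receptor genes, 21 overlap no exon of their gene, 18 of them in Igf1r, 2 in Met and 1 in Fgfr1. Most peaks of the receptors other than Igf1r thus overlap an exon. None of the 34 overlaps a TSS, and the long Fgfr4 peak was the only one to begin within 1 kb of one. Their median length was 3200 bp, against 2800 bp over tested peaks with a gene, and their median GC content 45.7% against 42.9%. The coding strand held more G than C in 27 of the 34 (79.4%), against 74.0% of tested peaks with a gene. The genes differed among themselves in this, with 18 of 19 peaks of Igf1r, 4 of 4 of Fgfr1 and 4 of 8 of Met on the G-rich side.

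Calls depended on peak length over the whole table, so the receptor peaks are also set within length classes. Of tested peaks up to 2000 bp, 56.9% were called higher, against 19.5% of those over 2000 to 6000 bp and 4.08% of longer ones. The receptor genes had 2 higher of 9 short peaks, 0 of 16 in the middle class and 1 of 9 in the long class, which also held the Fgfr4 peak that fell. Their median log2 fold changes were 0.094, 0.13 and 0.23 in these classes, against 0.73, 0.24 and 0.054 over all tested peaks of the same classes. The receptor medians were thus higher in the longer classes and those of all peaks lower, a contrast that was not tested or adjusted for gene. Igf1r held most of the short peaks. Its peaks up to 2000 bp lay between -0.26 and 0.40, and those over 6000 bp between -0.40 and -0.026. Met was at 0.68 in its 1800 bp peak and between 0.23 and 0.62 in peaks over 6000 bp. Fgfr4 was at 0.55 in its 1400 bp peak and -0.59 in its 10600 bp peak. The contrast thus did not hold within these genes.

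**Figure D4:**
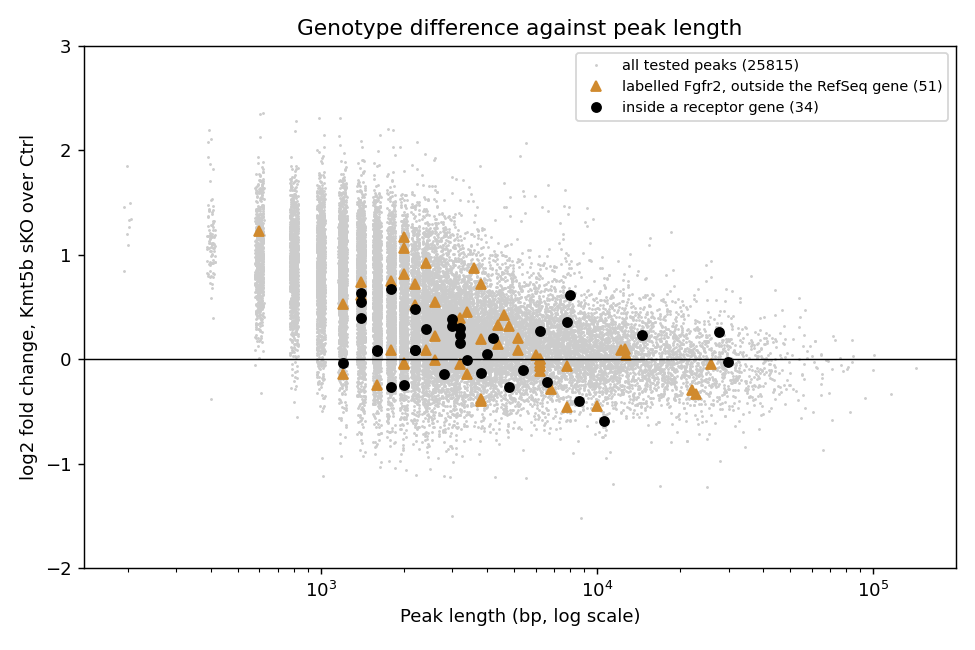
log2 fold change of Kmt5b sKO over Ctrl against peak length in bp on a log axis, with all 25815 tested peaks in grey, the 34 peaks inside a receptor gene as black circles and the 51 tested peaks labelled Fgfr2 as orange triangles. Short peaks of the whole table lie mostly above 0 and long ones near 0, and the black circles lie between -0.59 and 0.68.

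Pdgfra, Pdgfrb and Egfr had no peak. The nearest union peak lay 114.322 kb from Pdgfra, 44.534 kb from Pdgfrb and 46.603 kb from Egfr. Of 20665 autosomal coding genes 41.1% overlapped a union peak, and of the 4503 that are between 39.941 and 161.705 kb long, the range of these 3 genes and Fgfr2, 61.0% did. A gene without a union peak may still hold hybrids under the peak caller's threshold.

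The 53 peaks labelled Fgfr2 lay in or between other genes upstream of it. 51 passed the filter, of which 11 rose and 0 fell, where 32.9% of all tested peaks were called higher and 0.883% lower. By length, 7 of 13 up to 2000 bp rose, 4 of 23 over 2000 to 6000 bp and 0 of 15 longer ones. These counts lay near the shares of all tested peaks in the same classes, 56.9%, 19.5% and 4.08%. Under the other 3 scalings these 11 ranged from 0.092 to 1.03. Equal totals and centring shift all peaks by nearly the same amount, less than the fold threshold. Peaks called higher therefore stay positive there by selection. Most of the calls were lost, since 6, 3 and 2 peaks were called higher with equal totals, centring and quantile normalization. The peak nearest to Fgfr2, chr7:130399400-130401199, lies in Ate1, an arginyltransferase gene, and scored 41, 68 and 59 in Ctrl and 62, 60 and 54 in Kmt5b sKO. The genotypes overlapped there, and 0 of the 10 tested peaks of Ate1 were called. In Tacc2, the gene of a centrosomal coiled-coil protein, 4 of 10 tested peaks rose. Of its 11 peaks 7 were higher without overlap, as were 41.5% of all tested peaks, and the Tacc2 counts were not tested. Its peaks summed to 820, 888 and 732 in Ctrl and 1096, 1216 and 1126 in Kmt5b sKO. The Tacc2 peak with the smallest adjusted p, chr7:130693400-130696999, scored 110, 104 and 93 in Ctrl and 174, 211 and 182 in Kmt5b sKO, a log2 fold change of 0.88 (limma SE 0.18, adjusted p = 2.93e-05).

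Further along the interval, the 1 peak in Btbd16 scored 89, 77 and 92 in Ctrl and 172, 219 and 193 in Kmt5b sKO, a log2 fold change of 1.17 (limma SE 0.19, adjusted p = 3.19e-08). Both peaks of Chst15, a sulfotransferase gene, rose, as did 1 in Acadsb, 1 of 2 in Eef1akmt2 and both peaks in no coding gene. At the Chst15 peak chr7:132306200-132307599 the genotypes overlapped, with 28, 57 and 36 in Ctrl and 72, 33 and 90 in Kmt5b sKO (adjusted p = 0.0680 in limma). The highest peak by score under the label, chr7:131338600-131361399, overlapped 2310057M21Rik and scored 1004, 1212 and 923 in Ctrl and 807, 848 and 830 in Kmt5b sKO. It was lower without overlap, by a log2 fold change of -0.33 (limma SE 0.13, adjusted p = 0.0411) that was under the fold threshold. Both peaks of Bub3, a spindle checkpoint gene, were lower without overlap, at -0.45 and -0.38, as were 3.81% of all tested peaks. None of 8 peaks of Ctbp2 or of 5 of Zranb1 was called. The sum over the label, 8696, 10232 and 8437 in Ctrl and 8906, 9740 and 9273 in Kmt5b sKO, overlapped between genotypes (log2 fold change 0.033, limma SE 0.12, adjusted p = 0.843). With the label counted in, 14 of the 85 tested peaks rose (16.5%, against 32.9% of all tested peaks, not matched for length) and 1 fell. The median log2 fold change was 0.094. That median was 0.21 without Ctrl replicate 2, 0.053 without Ctrl replicate 3, and 0.15 without Kmt5b sKO replicate 1 or without Kmt5b sKO replicate 3.

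**Figure D5:**
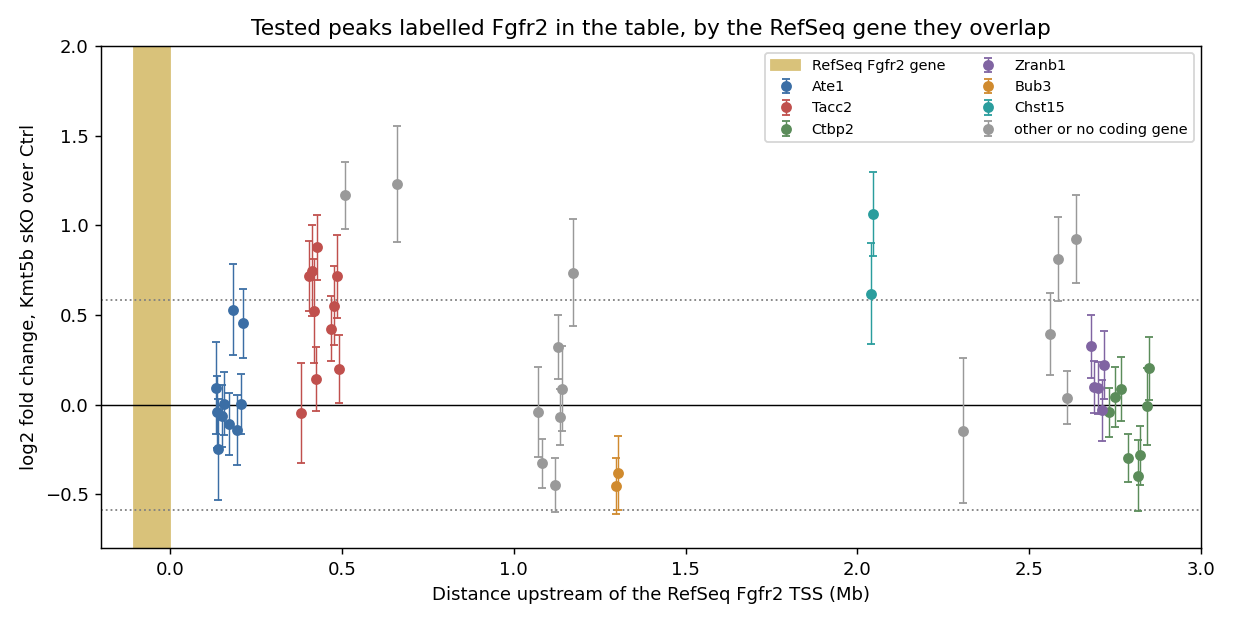
log2 fold change of Kmt5b sKO over Ctrl of the 51 tested peaks labelled Fgfr2, against their distance upstream of the RefSeq Fgfr2 TSS in Mb, coloured by the RefSeq gene they overlap. Vertical bars are 1 SE, dotted lines mark a fold of 1.5 and the band marks the RefSeq Fgfr2 gene, which holds no peak. Tacc2 peaks reach 0.88, while the Ate1 peaks closer to Fgfr2 stay between -0.25 and 0.53.

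Other genes of the pathway were taken from lists of receptors, ligands and adaptors. Of 50 further receptor tyrosine kinase genes 21 had a peak, and 18 of their 75 tested peaks rose and 0 fell, with a median log2 fold change of 0.097, although 6, 16 and 12 peaks were lower with equal totals, centring and quantile normalization. Epha2, an ephrin receptor, scored 1008, 1058 and 851 in Ctrl and 1771, 1815 and 1994 in Kmt5b sKO at a peak of 26200 bp (log2 fold change 0.94, limma SE 0.13, adjusted p = 2.39e-10). Axl, a receptor of Gas6, scored 360, 397 and 356 in Ctrl and 616, 690 and 733 in Kmt5b sKO at a peak of 10600 bp (0.87, limma SE 0.14, adjusted p = 7.75e-08). These long peaks were higher in every Kmt5b sKO library, and the Fgfr4 peak of the same length as that of Axl was lower in every one. They were named because they were called higher, and the Fgfr4 peak because it was called lower, so the opposite order follows from that choice.

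Of 37 ligand genes 5 had a peak, and 4 of 13 tested peaks rose and 0 fell, while 4 were lower with centring. Pdgfa, a ligand of Pdgfra, scored 77, 82 and 71 in Ctrl and 169, 165 and 166 in Kmt5b sKO (1.11, limma SE 0.19, adjusted p = 4.84e-07). Fgf12, a member of the fibroblast growth factor family that is retained in the cell, scored 30, 17 and 23 in Ctrl and 60, 82 and 82 in Kmt5b sKO (1.66, limma SE 0.31, adjusted p = 5.06e-06). Neither gene overlapped between genotypes at these peaks.

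Of 44 adaptor and feedback genes 30 had a peak, and 30 of 107 tested peaks rose and 0 fell, with a median of 0.28, although 4, 12 and 7 peaks were lower with equal totals, centring and quantile normalization. Sos2, an exchange factor of Ras, scored 214, 311 and 257 in Ctrl and 440, 456 and 460 in Kmt5b sKO (0.81, limma SE 0.15, adjusted p = 2.71e-06). Spred3, an inhibitor of Ras-ERK signalling, scored 35, 49 and 49 in Ctrl and 81, 110 and 134 in Kmt5b sKO (1.26, limma SE 0.23, adjusted p = 2.45e-06). Spred2, of the same inhibitor family, had 8 of 13 peaks higher, and Frs2, which docks to fibroblast growth factor receptors, 6 of 9, and both were named after their values were seen. The shares of peaks called higher were 24.0% for the other receptors, 30.8% for the ligands and 28.0% for the adaptors, against 32.9% of all tested peaks. Under the 3 other scalings the lowest value of the 6 peaks with values in these lists was 0.35. They had been picked among peaks called higher, so their sign with equal totals and centring was fixed by that choice.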

How the data were processed

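DRIP-seq was measured in 3 Ctrl and 3 Kmt5b sKO libraries. 1 input library per genotype had no values used here. The authors trimmed reads with Trimmomatic 0.39, aligned them with STAR 2.7.3a to mm10 (GRCm38), removed duplicates with Picard 2.21.7, called peaks against input with Epic2, listed as SICER 0.0.41 in the submitters' processing notes, and unified the peaks. The deposited score of each union peak was scaled by the authors to Drosophila spike-in reads and rounded, so it was not treated as a read count. The scores carry no read depth, and the library read totals of the study were not used here. The methods name the 3 libraries per genotype biological replicates.

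The members and lists were chosen with earlier results of these data known. Peaks took the gene of longest overlap in the table, and were also set against RefSeq genes. Peak coordinates follow the table, and a peak start or end may lie 1 base before the base a genome browser shows. Sequence windows are 1-based.

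Autosomal peaks with a mean score over 30 (25815) were tested with limma 3.58.1 in R 4.3.3 on log2(score + 1), for genotype alone (two-sided, Benjamini-Hochberg adjusted over these peaks). The fold change is on that scale, which understates the change of low peaks. Gene sums (7299 genes) were tested likewise. The prior degrees of freedom were infinite, so a peak's variance came from the trend and not from its own replicates. On simulated data with 200 of 25815 peaks changed by 1 on the log2 scale, 80.5% were called, beside 13 unchanged peaks. Of 200 of 7299 genes changed likewise, 92.5% were called, beside 5 unchanged genes. The simulated spread came from the trend alone, with libraries independent and without a shift in total, which is what the fit assumes. The low counts of unchanged peaks and genes therefore do not measure the errors in the real libraries. Values were given in full for each gene's highest peak, its peak nearest the TSS and its called peaks, of which only some were written out under the label Fgfr2, and for the called peaks of smallest adjusted p in each list. Other analyses used Python 3.11.15, numpy 2.4.6, pandas 2.3.3 and scipy 1.17.1. Alternatives were pseudocounts, level filters, scalings, variance models, a replicate block, the sex chromosomes, the fold threshold, the gene model and leaving out each library.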

Additional observations from a re-analysis of the deposited data

How the results depend on the processing

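On the spike-in scale, 14 peaks under the 9 symbols were called higher and 1 lower, and 3 and 1 of those inside the receptor genes. With equal totals these became 6 and 5, and 0 and 2; with centring on the median 3 and 17, and 0 and 8; with quantile normalization 2 and 10, and 0 and 6. The share of higher among all called peaks moved from 97.4% to 87.3%, 46.3% and 51.0%. The median log2 fold change of the member peaks turned from 0.094 to -0.11, -0.36 and -0.16, and ran from 0.053 to 0.21 when libraries were left out. Counting only peaks that overlap the RefSeq genes, chosen after the data were seen, left 3 higher. With a pseudocount of 10 there were 11 and 0 calls, and 1 and 0 inside the receptor genes; with each peak's own variance 8 and 0, and 1 and 0; with a mean score over 100, 4 and 1, and 1 and 1; with a fold over 2, 3 and 0, and 0 and 0; with no minimum fold 20 and 6, and 5 and 2. Leaving out each library gave 9 to 16 higher and 0 to 1 lower, and 0 to 4 and 0 to 1 inside the receptor genes. The lower call, the Fgfr4 peak, was lost without Ctrl replicate 2, without Kmt5b sKO replicate 3, with a pseudocount of 10 and with its own variance, the 9 higher calls came without Ctrl replicate 3 and without Kmt5b sKO replicate 2, and inside the receptor genes 1 was higher without Ctrl replicate 1 and 0 without Kmt5b sKO replicate 2.

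Of the genes by summed score, 1 (Insr) was higher and 0 lower. It was 0 higher with a pseudocount of 10, a mean score over 100, each gene's own variance, a fold over 2 and each of the 3 scalings, which each called 1 lower (Fgfr4). With no minimum fold there were 2 higher and 1 lower, and leaving out each library gave 0 to 1 higher. The sum of Fgfr1 turned to -0.10 and that of Met to -0.014 with centring, and that of Igf1r to 0.048 without Ctrl replicate 2. The sum under the label Fgfr2 turned to -0.12 with equal totals, -0.28 with centring, -0.062 with quantile normalization, and ran from -0.020 (without Ctrl replicate 3) through -0.00013 (without Kmt5b sKO replicate 2) to 0.12 (without Ctrl replicate 2) when libraries were left out.

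Of other receptor peaks, 18 were higher and 0 lower. With equal totals 6 were lower, with centring 4 higher and 16 lower, with quantile normalization 7 and 12, with a mean score over 100 4 higher, with a fold over 2 7 higher, and with no minimum 4 lower; leaving out each library gave 17 to 20 and 0 to 3. Of ligand peaks, 4 were higher and 0 lower, with 2 higher at a mean score over 100, 2 and 4 with centring, and 1 lower with no minimum. Of adaptor peaks, 30 were higher and 0 lower. With equal totals there were 14 and 4, with centring 6 and 12, with quantile normalization 6 and 7, with a mean score over 100 7 higher, with own variance 15 higher, with a fold over 2 9 higher and with no minimum 4 lower; leaving out each library gave 22 to 32 and 0 to 3. The causes were not tested.

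Libraries with the same replicate number did not deviate together, with correlations of -0.0094, 0.011 and -0.027 between their deviations. These values cannot tell whether such libraries were prepared as pairs. The replicate block gave 13 higher and 1 lower under the 9 symbols and 2 and 1 inside the receptor genes, and the call at Insr was lost. The scores carry no read depth, and the SE of the receptor peaks ran from 0.13 at the highest scores to 0.37 at the lowest.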
